A study of Mus musculus with 16 samples.

Results

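The genes described here are those of the ErbB4 and neuregulin system: the receptors Erbb4, Erbb2 and Erbb3 and the ligands Nrg1, Nrg2, Nrg3 and Nrg4. They were taken by symbol and make up 7 of the 54532 genes in the deposited tables. All 7 were found once in each table, and all 7 passed the filter on low counts. RNA was sequenced from parvalbumin (PV) interneurons of the mouse cortex, sorted by green fluorescence after fixation. The control group held 9 libraries from PV-Cre;lsl-eGFP mice, and the other group held 7 libraries from PV-Cre;lsl-eGFP-GluA2 mice. Both genotypes carried PV-Cre and a Cre-dependent allele, so the cells collected were those in which PV-Cre had acted, whatever they expressed at sorting. In the first genotype the allele gives eGFP alone; in the second it gives eGFP joined to GluA2, the AMPA receptor subunit that blocks calcium entry, and the labels state that it serves to remove calcium-permeable AMPA receptors. The mice were adult, at 113.1 ± 11.6 days over the whole study. For single libraries, age and sex were not given in the sources consulted. The labels call the libraries biological replicates.

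Neuregulins are growth factors with an EGF-like domain that binds the ErbB receptors, a family of receptor tyrosine kinases. ErbB4 binds neuregulins and has an active kinase; ErbB3 binds them but has little kinase activity of its own; ErbB2 binds no known ligand and signals as a partner of the others. In the cortex ErbB4 is known as a receptor of interneurons, PV basket and chandelier cells above all, where it takes part in the formation of excitatory synapses onto them, while ErbB3 and ErbB2 are known from the glia that make myelin.

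The EGF-like domain is the part that the ligands have in common and the part that meets the receptor, so its coding sequence is shown for 3 of the ligands. Each was read from a GENCODE M21 transcript, 5′ to 3′ in the sense of the messenger RNA. Capitals mark the 6 cysteine codons that hold the fold together. The reference gives 2 forms of this domain for Nrg1, known as the beta and alpha types.
Nrg1, beta type: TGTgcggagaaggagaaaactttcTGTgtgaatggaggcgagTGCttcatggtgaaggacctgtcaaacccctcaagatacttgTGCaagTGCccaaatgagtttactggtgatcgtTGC
Nrg1, alpha type: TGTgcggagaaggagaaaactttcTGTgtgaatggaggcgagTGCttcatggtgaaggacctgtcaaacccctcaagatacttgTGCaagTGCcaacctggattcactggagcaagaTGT
Nrg3: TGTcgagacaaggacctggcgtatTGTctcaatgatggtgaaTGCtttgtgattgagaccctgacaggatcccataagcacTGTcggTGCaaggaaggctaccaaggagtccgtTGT
Nrg4: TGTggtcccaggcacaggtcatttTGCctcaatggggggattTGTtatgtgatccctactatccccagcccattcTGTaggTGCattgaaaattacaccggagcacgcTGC

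All 4 sequences had 7 codons between capital codons 1 and 2, 5 between 2 and 3, 1 between 4 and 5 and 8 between 5 and 6. They differed in length between capital codons 3 and 4, with 13 codons in both forms of Nrg1, 12 in Nrg3 and 10 in Nrg4. The 2 forms of Nrg1 shared their first 94 bases of 120 and parted just after capital codon 5. The deposited values are per gene, so they do not tell these forms apart.

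The genes differ in their place in the genome (GRCm38), and this bears on how reads can be assigned. Erbb4 (ENSMUSG00000062209) lies on the minus strand of chromosome 1 from 68032186 to 69108059, a span of 1076 kb of which 1.15% is exon. Nrg1 (ENSMUSG00000062991) spans 1069 kb on chromosome 8, from 31814551 to 32884029, and Nrg3 (ENSMUSG00000041014) spans 1104 kb on chromosome 14, from 38368952 to 39473088; both are on the minus strand. Nrg2 (ENSMUSG00000060275) spans 180 kb on chromosome 18, from 36017652 to 36197380, and Nrg4 (ENSMUSG00000032311) spans 107 kb on chromosome 9, from 55220222 to 55326844, again on the minus strand. Erbb2 (ENSMUSG00000062312, chromosome 11, 98412470 to 98437716, plus strand) and Erbb3 (ENSMUSG00000018166, chromosome 10, 128567523 to 128589652, minus strand) are short, at 25.2 and 22.1 kb. The sources do not state whether reads were counted by strand, and reads shared with an overlapping gene cannot be assigned. Opposite-strand genes have a span that touches exons of Erbb2 (Mien1), Nrg1 (Gm26578) and Nrg4 (Fbxo22 and Gm15625). Whether their own exons touch those of the members was not tested. The other annotated overlaps lie outside the members' exons: Gm25048 in Erbb2, Mir6917 in Erbb3, Gm22140 in Nrg1, 4930471G03Rik in Nrg2, and Nrg3os, Gm20641, Gm20642 and Gm27332 in Nrg3.

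Total counts ran from 7454165 to 15462544 per library. Libraries of both groups differed in a background measure, the CPM (counts scaled to a common library total) of olfactory and vomeronasal receptor genes on the autosomes, genes of smell and pheromone sensing. Of the libraries, 5 (3 from eGFP mice and 2 from eGFP-GluA2 mice) had 97.5 to 182 CPM, 5 others (2 and 3) had 750 to 1417 CPM and 6 (4 and 2) had 2112 to 4594 CPM. These sets are called low, middle and high background below. The transgene was visible as Gria2, the gene of GluA2, with 581 ± 84.8 CPM in the 9 eGFP libraries and 935 ± 117 CPM in the other 7 (± SD), without overlap. The defining markers of PV interneurons were present: Gad1 averaged 712 TPM (a scale corrected for transcript length and library total), Pvalb 233 TPM and Slc32a1 88.0 TPM over the 16 libraries. Sst, which marks another interneuron class, averaged 12.6 TPM and Slc17a7 of excitatory neurons 7.64 TPM. In bulk RNA, fewer cells of a type and less RNA per cell cannot be told apart.

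Erbb4 was among the most abundant messenger RNAs of these cells and left its relatives far behind. Its level was 201 ± 27.6 TPM (SD, n = 9) in eGFP and 221 ± 75.3 TPM (SD, n = 7) in eGFP-GluA2 libraries, close to that of Pvalb. Over all libraries it ranked 176 of 54532 genes by mean TPM, and 153 in the low-background libraries. Of the TPM of the 3 receptors together, Erbb4 held 99.5% ± 0.496 (SD, n = 16), and 98.6% in the library where its share was lowest.

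Among the ligands, Nrg3 led. Its mean over the 16 libraries was 18.9 TPM, followed by Nrg2 at 4.55, Nrg4 at 3.00 and Nrg1 at 2.68 TPM. Erbb4 exceeded Nrg3 by 11.1 times on average, and the ranges of these neighbours in the order did not overlap; nor did those of Nrg3 and Nrg2. Nrg2 exceeded Nrg4 in 14 of 16 libraries, and Nrg4 exceeded Nrg1 in only 10 of 16, so the order of Nrg4 and Nrg1 was within their spread. Nrg1 exceeded Erbb2 in 16 of 16 libraries although their ranges overlapped, and Erbb2 (mean 0.631 TPM) exceeded Erbb3 (0.234 TPM) in 10 of 16. As a share of all neuregulin TPM, Nrg3 held 65.0% ± 6.55, Nrg2 15.5% ± 5.42, Nrg4 10.2% ± 2.62 and Nrg1 9.31% ± 3.45 (SD, n = 16).

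**Figure D1:**
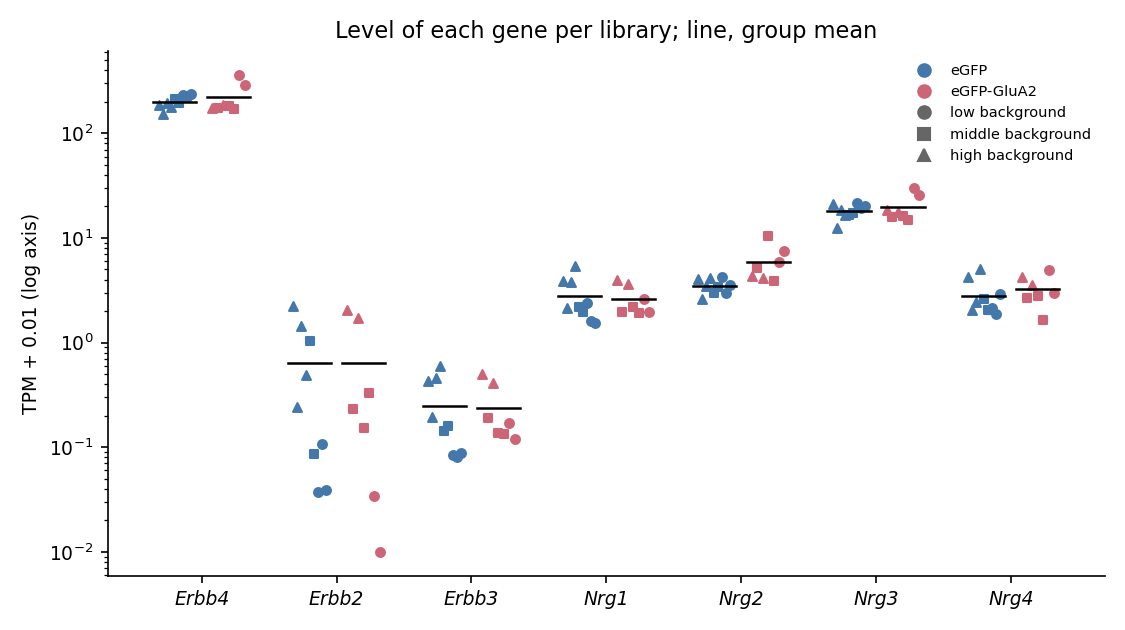
TPM + 0.01 of the 7 genes on a log axis, 1 point per library, with group means as lines; colour gives the genotype and shape the background set. Erbb4 sits above every other gene in all 16 libraries. Erbb2 and Erbb3 spread widely, and their background sets overlap in part.

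The genotypes were compared by edgeR's quasi-likelihood test on the deposited counts, with the background measure as a covariate and Benjamini-Hochberg adjustment over all 26257 genes tested. None of the 7 genes passed the threshold of 0.05 (all adjusted p = 1.00), beside 9 genes in all, or 0.0343% of those tested. At an unadjusted p under 0.05 lay 1 of 7, Nrg2, beside 995 genes, or 3.79%. No member had groups that did not overlap, in log2 CPM (background 0.0229% of genes) or in log2(TPM + 0.5) (0.0152%). The median log2 fold change of the 7 genes was -0.02, beside 0.01 over all genes tested, and 3 of the 7 lay above 0.

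**Figure D2:**
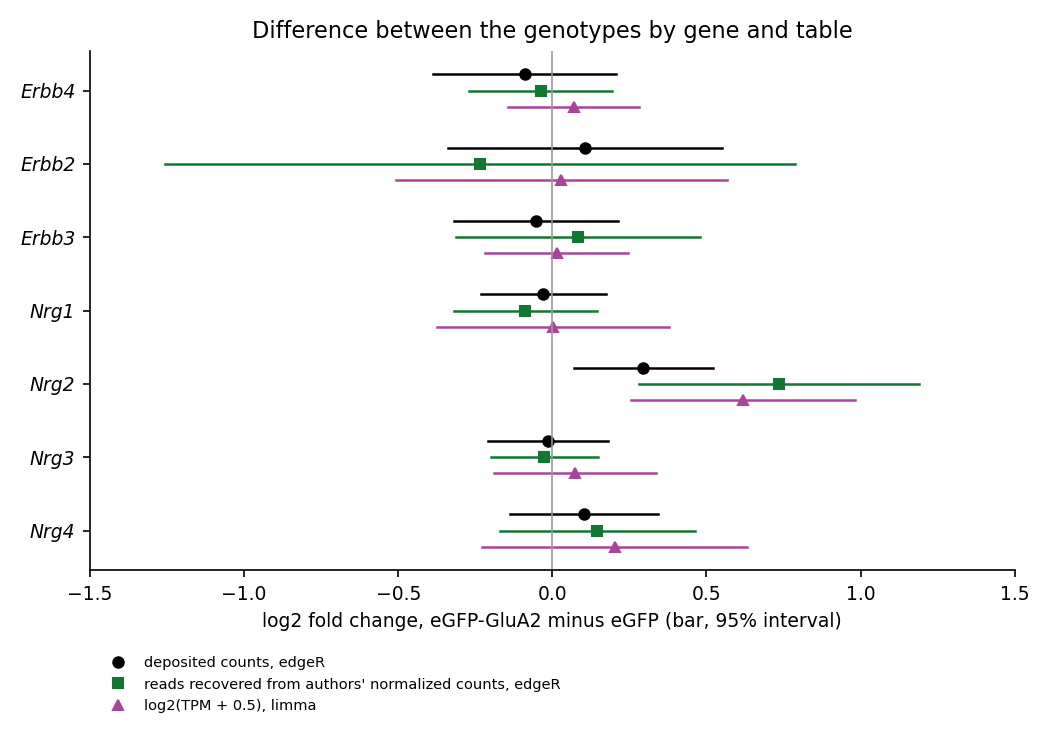
Log2 fold change of each gene, eGFP-GluA2 minus eGFP, with its 95% interval, from the deposited counts, from reads recovered from the authors' normalized counts, and from TPM. Nrg2 is the only one of the 7 whose 3 intervals all lie above 0; the intervals of the other genes span 0.

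Erbb4, the receptor that made up nearly all receptor messenger RNA, showed no difference between the genotypes beyond the spread between libraries. In the 9 eGFP libraries it ran from 1452 to 2111 CPM with a median of 1699, and in the 7 eGFP-GluA2 libraries from 1369 to 2102 CPM with a median of 1564. The groups overlapped over nearly their whole range, and 3 of 7 eGFP-GluA2 libraries lay above the eGFP median. The log2 fold change was -0.09 ± 0.14 (SE; 95% interval -0.39 to 0.21). The exact two-sided permutation test of mean log2 CPM over 11440 assignments gave a difference of -0.07 and p = 0.527. Restricted to the 1500 assignments within the background sets, the exact permutation test gave p = 0.0993.

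Within the background sets the Erbb4 difference in log2 CPM was 0.00 in low, -0.12 in middle and -0.13 in high-background libraries, with overlap in the first 2 and none in the last. On TPM the same differences were 0.49, -0.20 and 0.04, with no overlap in low and middle. With so few libraries a set, lack of overlap is common. In either direction it held for 25.1%, 18.9% and 9.19% of all genes tested in low, middle and high-background libraries on log2 CPM, and for 46.9%, 18.6% and 7.96% on log2(TPM + 0.5). The eGFP-GluA2 libraries of low background, replicates 6 and 7, had 364 and 288 TPM of Erbb4, above every other library. Their TPM were also high in general, by a median of 0.54 and 0.29 log2 units over 8558 genes against the mean of the low-background eGFP libraries. On TPM the Erbb4 fold change was 0.07 ± 0.10 over all libraries and -0.09 ± 0.09 without those 2. Accordingly, the direction of the Erbb4 difference depends on the table, and no table gave a difference past the threshold.

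Erbb4 counts also differed with the background. Erbb4 fell by 0.09 ± 0.01 (SE) in log2 CPM for each doubling of the background, by least squares with the group in the model. With TMM scaling, as in the edgeR fit, it fell by 0.19 ± 0.04. The scaling moves all genes: the median slope was 0.14 on log2 CPM and 0.04 with TMM, and 6.61% and 6.09% of genes had a lower slope than Erbb4. It averaged 2021 ± 102 CPM (SD, n = 5) in low, 1673 ± 128 (n = 5) in middle and 1496 ± 114 (n = 6) in high-background libraries. The summed level of the 11 PV interneuron markers, Erbb4 included, moved with it, from 10710 ± 375 through 9051 ± 237 to 7139 ± 815 CPM. The part of the PV cells' share in this was not tested.

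Inside the introns of Erbb4, 8 genes are annotated on the same strand: Gm37100, Gm15670, Gm25542, Gm19335, Gm37735, Gm37769, Gm37061 and Gm16076. None touches an Erbb4 exon, and most carry the annotation class for transcripts that await experimental evidence. Their counts together came to 5.79% ± 0.386 (SD, n = 5) of Erbb4's in low-background and 9.77% ± 2.21 (n = 6) in high-background libraries. The largest were Gm37769, at 36.3 CPM in low and 43.8 CPM in high-background libraries, and Gm16076, at 34.6 and 43.7 CPM. Erbb4 itself went the other way between the low and high sets. From low to middle background the summed level of the 8 genes fell as Erbb4 did, from 117 to 107 CPM, and it was 145 CPM at high background. Between the genotypes the summed counts came to 7.58% ± 2.46 (SD, n = 9) of Erbb4's in eGFP libraries and 7.30% ± 2.23 (n = 7) in the others, a difference within the spread. Per kilobase of exon, Erbb4 had 164 CPM in low-background libraries, against 72.1 for Gm16076 and 15.3 for Gm37769.

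Erbb2, the ligandless partner receptor, was near the floor of detection where the background was low. In the 5 low-background libraries it had 3, 10 and 4 counts (eGFP replicates 7 to 9) and 2 and 0 counts (eGFP-GluA2 replicates 6 and 7). The count of 0 in 13175003 allows up to 3 counts, or 0.228 CPM. The level averaged 0.279 ± 0.288 CPM in these libraries, 4.61 ± 1.66 CPM (n = 5) in middle and 14.2 ± 3.56 CPM (n = 6) in high-background ones. On TPM neighbouring sets overlapped, at 0 to 0.0982 in low, 0.0756 to 1.03 in middle and 0.235 to 2.24 TPM in high-background libraries. Deposited counts and recovered reads of Erbb2 differed unevenly. There were 137 counts against 27 reads in eGFP replicate 4, 29 against 5 in eGFP replicate 6 and 131 against 118 in eGFP replicate 1. Erbb2 rose by 1.08 ± 0.05 in log2 CPM per doubling of the background (0.96 ± 0.06 with TMM scaling). Of all genes tested, 99.5% had a lower slope on log2 CPM and 92.6% with TMM. The fold change between genotypes was 0.11 ± 0.22 (95% interval -0.34 to 0.55). Without eGFP-GluA2 replicate 5 it was -0.036, and on recovered reads -0.23 ± 0.49, so its sign is not settled by these libraries.

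Erbb3, the neuregulin receptor with a weak kinase, followed the same course. It averaged 0.890 ± 0.198 CPM (SD, n = 5) in low, 4.26 ± 1.03 in middle and 12.7 ± 2.33 CPM in high-background libraries. Its slope was 0.74 ± 0.03 in log2 CPM per doubling (0.67 ± 0.03 with TMM scaling). Of all genes tested, 85.2% had a lower slope on log2 CPM and 79.2% with TMM, so many genes rose more steeply than Erbb3. In eGFP libraries it ran from 0.858 to 15.5 CPM with a median of 4.54, and in eGFP-GluA2 libraries from 0.582 to 14.5 with a median of 3.85. The fold change was -0.05 ± 0.13 (95% interval -0.32 to 0.21). On CPM the genotypes overlapped, while the background sets did not. On TPM the low and middle sets overlapped, at 0.0712 to 0.159 and 0.123 to 0.178 TPM, and the high set exceeded the low by 4.31 times, against 14.3 times on CPM. The tables differed here too. Erbb3 had 2.84 to 4.17 deposited counts per recovered read in high-background libraries and 0.5625 to 1.67 in low-background ones. Within the low set the eGFP-GluA2 libraries lay above the eGFP ones on TPM, by 0.14 in log2(TPM + 0.5), and overlapped them on CPM, at -0.35.

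Markers of other cells moved with the background as these receptors did, in part. The 6 markers of oligodendrocyte precursors summed to 8.46 ± 2.17, 23.5 ± 6.76 and 55.0 ± 8.16 CPM in low, middle and high-background libraries, with ranges of 6.01 to 10.6, 16.02 to 33.9 and 41.9 to 65.1 CPM. The 6 endothelial markers summed to 10.4 ± 2.33, 20.96 ± 4.56 and 55.1 ± 13.3 CPM. The 9 markers of oligodendrocytes did not climb in this way, at 117 ± 30.6, 97.4 ± 15.6 and 124 ± 18.9 CPM. Mural markers climbed, from 9.28 through 18.4 to 48.1 CPM, and microglial markers less, from 32.8 through 36.1 to 52.0 CPM. Astrocyte markers fell, from 242 through 206 to 183 CPM. Markers of excitatory neurons (240, 263 and 252 CPM), other interneurons (348, 338 and 340) and erythrocytes (21.7, 16.6 and 26.0) did not climb in this way. No marker of these lists was at 0 in every library. The part of other cells in the Erbb2 and Erbb3 levels was not tested.

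**Figure D3:**
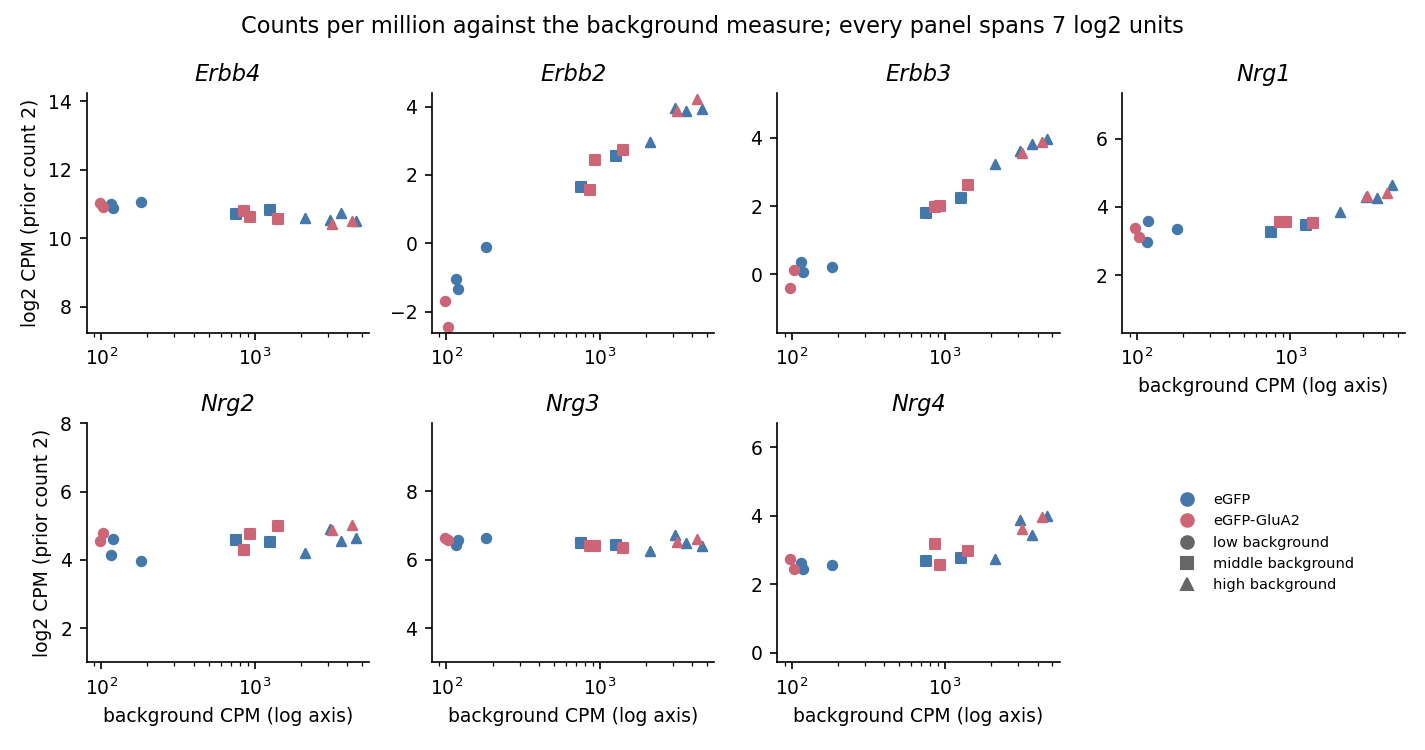
Log2 CPM of each gene against the background measure (log axis), 1 point per library, each panel spanning 7 log2 units. Erbb2 and Erbb3 climb with the background, Erbb4 falls by 0.09 per doubling, and the 2 genotypes lie along the same course.

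A difference between the genotypes in how the members followed the background was not detected. In edgeR's quasi-likelihood test of the interaction of genotype and background all 7 adjusted p were 1.00. Erbb2 had the steepest interaction, at 0.17 ± 0.15 (SE) per doubling.

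Nrg2, the closest relative of Nrg1, was the ligand with higher values in eGFP-GluA2 libraries, short of the threshold. Its CPM were 29.6, 18.1, 23.4 and 24.8 in the 4 high-background eGFP libraries, 22.7 and 23.8 in the 2 middle ones and 24.1, 15.6 and 17.6 in the 3 low ones. In eGFP-GluA2 libraries they were 32.5 and 28.9 at high, 31.5, 19.5 and 26.7 at middle and 23.5 and 27.2 at low background. The groups overlapped, with 2 of 7 eGFP-GluA2 libraries above every eGFP library and 6 of 7 above the eGFP median. The mean of the eGFP libraries was 22.2 ± 4.37 CPM (SD, n = 9) and that of the eGFP-GluA2 libraries 27.1 ± 4.49 CPM (SD, n = 7). The log2 fold change was 0.30 ± 0.11 (95% interval 0.07 to 0.52; unadjusted p = 0.0117, adjusted p = 1.00 by edgeR's quasi-likelihood test).

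On TPM the Nrg2 groups stood further apart. The eGFP libraries ran from 2.58 to 4.19 TPM with a median of 3.45, and the eGFP-GluA2 libraries from 3.88 to 10.5 TPM with a median of 5.15. All 7 eGFP-GluA2 libraries lay above the eGFP median and 5 above every eGFP library. Within each background set the genotypes did not overlap, with differences in log2(TPM + 0.5) of 0.83 in low, 0.81 in middle and 0.24 in high-background libraries. In the high set the margin was narrow. There eGFP-GluA2 replicate 3 had 4.13 TPM and eGFP replicate 4 had 4.09 TPM, at 163 and 162 recovered reads. The same pattern, eGFP-GluA2 above eGFP in all 3 sets, held for 0.221% of all genes tested. In the low set the TPM of eGFP-GluA2 replicates 6 and 7 were high in general, as given above, and 4 other members were higher there without overlap: Erbb4 by 0.49, Erbb3 by 0.14, Nrg3 by 0.43 and Nrg4 by 0.65. In log2 CPM the same differences were 0.43, 0.13 and 0.37, with overlap in each. The fold change by limma on log2(TPM + 0.5) was 0.62 ± 0.17 (adjusted p = 1.00). As a share of neuregulin TPM within each library, Nrg2 held 12.8% ± 0.802 (SD, n = 9) in eGFP libraries and 18.9% ± 6.91 (SD, n = 7) in eGFP-GluA2 libraries.

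A single library carried part of that distance. In eGFP-GluA2 replicate 4 Nrg2 had 235 deposited counts but 627 reads recovered from the authors' normalized table. That is 2.66 reads per count (0.5 added to each), a ratio higher than that of 98.7% of 10530 genes in that library, and its TPM was 10.5. In the other 15 libraries the reads per count of Nrg2 were between 0.594 and 0.981. On recovered reads the fold change was 0.74 ± 0.22 (adjusted p = 0.824 by edgeR's quasi-likelihood test) with this library and 0.38 ± 0.12 without it. On TPM it was 0.47 ± 0.15 without it. The authors' deposited table gives Nrg2 a log2 fold change of 0.45 ± 0.15 (SE) with an unadjusted p of 0.00275 and an adjusted p of 1.00.

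**Figure D4:**
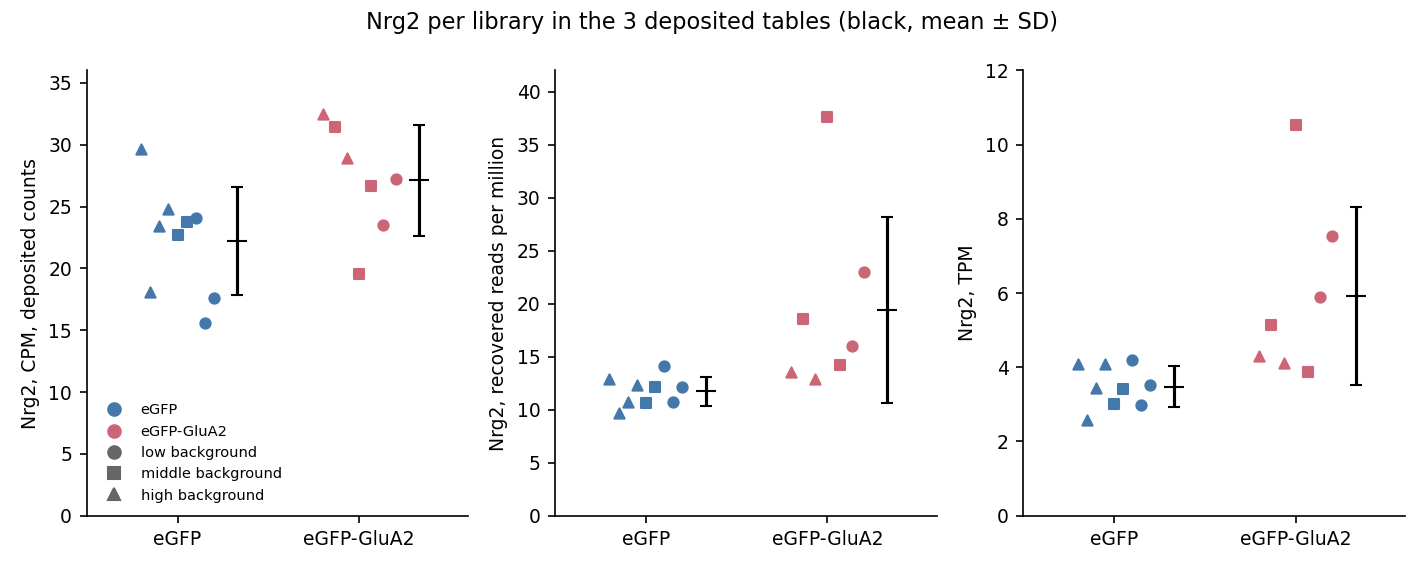
Nrg2 per library as CPM of deposited counts, as recovered reads scaled to the library total and as TPM, with group mean ± SD in black. The eGFP-GluA2 libraries lie higher in all 3 panels and overlap the eGFP libraries; replicate 4 stands apart from the other libraries on recovered reads and TPM (10.5 TPM) and not on CPM (19.5).

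Markers of excitatory neurons had a higher summed level in eGFP-GluA2 libraries, with overlap, at 276 ± 16.6 CPM (SD, n = 7) with a range of 257 to 302, against 233 ± 26.2 CPM (SD, n = 9) with a range of 205 to 288 in eGFP libraries. All 9 of these markers had fold changes above 0, beside 53.1% of all genes tested; 0 passed the threshold and 4 lay at an unadjusted p under 0.05 by edgeR's quasi-likelihood test, beside 3.79%. Other marker lists varied. Above 0 lay 6 of 6 mural, 7 of 9 oligodendrocyte, 6 of 7 microglial, 5 of 6 oligodendrocyte precursor and 8 of 12 other interneuron markers. Of the PV interneuron, endothelial, astrocyte and erythrocyte markers 6 of 11, 4 of 6, 3 of 8 and 0 of 3 did. Over all lists 54 of 77 tested markers lay above 0 and 0 passed. At an unadjusted p under 0.05 by the same test lay 9 of the 77. They were the 4 excitatory ones, Pdgfrb, Lamp5, Olig2, Gfap and, lower in eGFP-GluA2 libraries, Hbb-bs. None of the 9 excitatory neuron markers was at 0 in every library. Their part in the Nrg2 values was not tested.

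Nrg3, the most abundant ligand and a neuregulin known to bind ErbB4, did not differ between the genotypes beyond its spread. It ran from 76.7 to 106 CPM in eGFP (median 90.2) and from 80.1 to 98.2 CPM in eGFP-GluA2 libraries (median 91.7). The groups overlapped over the whole eGFP-GluA2 range. The fold change was -0.02 ± 0.09 with a 95% interval of -0.21 to 0.18. Across the background Nrg3 moved little on CPM, with a slope of -0.02 ± 0.02 in log2 CPM per doubling, and fell with TMM scaling, by 0.12 ± 0.02. It averaged 94.9 ± 5.17, 85.2 ± 3.57 and 90.8 ± 9.98 CPM in low, middle and high-background libraries, while its TPM were 23.4 ± 4.27, 16.1 ± 0.995 and 17.5 ± 2.84. Of the genes inside it, the antisense RNAs Nrg3os and Gm20642 had 16.1 and 14.2 CPM in low-background libraries and Gm20641 had 1.68 CPM.

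Nrg1, the founding member with many isoforms, ran from 7.75 to 24.9 CPM in eGFP libraries (median 11.9) and from 8.50 to 21.1 CPM in eGFP-GluA2 libraries (median 11.5). The fold change was -0.03 ± 0.10 (95% interval -0.23 to 0.17). The high values of both genotypes belonged to the high-background libraries, at 19.8 ± 3.42 CPM against 11.0 ± 0.921 in middle and 9.67 ± 1.63 in low-background ones. Nrg4, a ligand of ErbB4 without the extra domains of the others, followed the same course on counts, at 12.4 ± 3.52, 7.03 ± 1.28 and 5.75 ± 0.531 CPM in high, middle and low-background libraries. In eGFP libraries it ran from 5.29 to 15.6 CPM with a median of 6.48, and in eGFP-GluA2 libraries from 5.24 to 15.4 CPM with a median of 7.71. Its fold change was 0.10 ± 0.12 (95% interval -0.14 to 0.34). On counts, these intervals leave room for differences of the size measured for Nrg2 in Nrg4 and not in Nrg1 or Nrg3.

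The rest of the pathway was described through 97 genes in 10 role groups, of which 96 were tested; Areg, an EGF-family ligand, fell under the filter. None passed the threshold, and 0 of 96 lay at an unadjusted p under 0.05 by edgeR's quasi-likelihood test, beside 3.79% of all genes. Fold changes were above 0 for 45 and below 0 for 51, with a median of -0.01 against 0.01 over all genes. The highest was 0.26 ± 0.14, for Spry1. As no gene passed, those with the smallest p of each role follow as values, beside the most abundant ones.

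Among the other ErbB ligands, Cspg5 (neuroglycan C, with an EGF-like domain) was the most abundant at 32.9 TPM, above Nrg3, and Hbegf came next at 4.48 TPM. The smallest p belonged to Tgfa (0.18 ± 0.18) and Egf (-0.10 ± 0.12). Egfr, the receptor of EGF and related ligands, averaged 0.566 TPM and differed by -0.10 ± 0.15. Of the sheddases, which cut neuregulins and ErbB4 at the cell surface, Bace1 led at 27.9 TPM; Bace2 differed by 0.19 ± 0.15 and Adam10 by 0.05 ± 0.10. Gamma-secretase frees the intracellular domain of ErbB4, and all 6 of its genes were tested. Aph1b, a subunit of the complex, differed by -0.09 ± 0.12.

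The list of synaptic partners includes scaffolds of the Dlg family, which hold ErbB4 at the postsynaptic density, and genes of other kinds. Cntnap2, which is not of that family, was its most abundant gene at 94.4 TPM, and Dlg2 came next at 58.4 TPM. Dlg1 differed by -0.16 ± 0.10 and Erbin, a scaffold named for its binding to ErbB2, by -0.12 ± 0.10. Of the adaptors and phosphatases, Ptprz1 differed by -0.17 ± 0.12 and Sos2, an exchange factor for RAS, by -0.10 ± 0.08. In the PI3K arm the regulatory subunits Pik3r1 and Pik3r2 differed by -0.13 ± 0.09 and 0.14 ± 0.11. In the MAPK arm 13 genes were tested, 4 above and 9 below 0, with a median of -0.02. Partners of the freed ErbB4 domain in the nucleus were led by Ncor1 at 59.2 TPM; Ets1 differed by -0.09 ± 0.08 and Yap1 by -0.12 ± 0.16. In the list of inhibitors and ubiquitin ligases, the ligase Nedd4 led at 64.9 TPM. Lrig3, of the Lrig family, differed by -0.14 ± 0.10, and its own action on ErbB receptors was not tested. The inhibitor Spry1, given above, is induced by growth factor signalling and averaged 1.82 TPM.

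**Figure D5:**
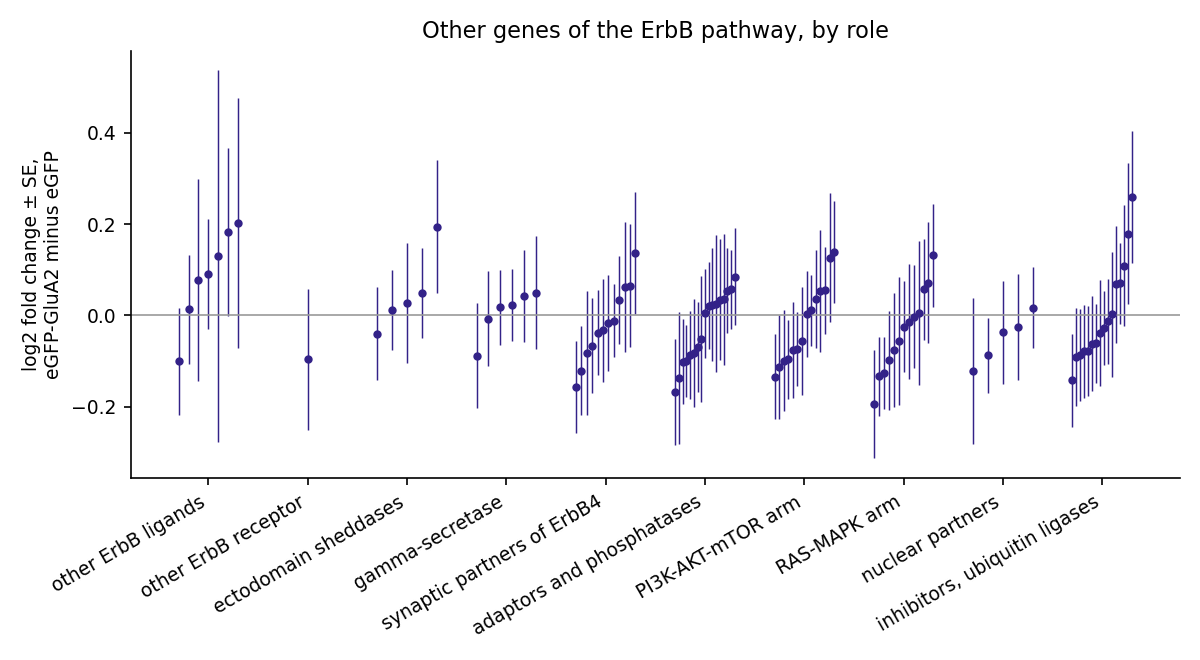
Log2 fold change ± SE of the 96 tested pathway genes, eGFP-GluA2 minus eGFP, by role. Values lie on both sides of 0 in each role with more than 1 gene, and none passed the threshold.

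The genes whose levels followed Erbb4 from library to library were found by Pearson's r of log2 CPM after removing the background measure and the group, over 16 libraries and 8557 genes. The 5 highest included Sema5a (r 0.85, rho 0.81), Kcnq3 (0.85, 0.69), Tenm1 (0.83, 0.77) and Lmbrd1 (0.82, 0.80). Sema5a encodes a semaphorin, Kcnq3 a potassium channel subunit of the M-current and Tenm1 a teneurin of the cell surface. Pvalb had r 0.06, Nrg3 0.05 and Nrg2 -0.48 on the same measure. On log2(TPM + 0.5) the 5 highest were Vps13c, Xpr1, Sema5a, Ltn1 and Ash1l, so 1 gene of 5, Sema5a, was shared. There Nrg3 had r 0.86, which ranked only 270 of the 8557 genes, against rank 3439 on log2 CPM. These points share library and depth, and they describe these 16 libraries.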

How the data were processed

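Reads went through bcbio-nextgen 1.2.3 with STAR on GRCm38, Sailfish for quantification and DESeq2 for testing, per the design text of the series. The authors deposited raw counts for 54532 genes (by a counter that the sources do not name), TPM values, and a table of their comparison. The table deposited by the authors for their comparison holds signal values, gene counts scaled by library size factors. It also holds the authors' log2 fold changes, test scores and p-values. Every normalized value (100% within a tolerance of 0.001) was a multiple of what 1 read is worth in its library, so 10477517 to 17382059 reads per library were recovered and tested as an alternative; edgeR called 5 genes on them.

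The 7 members and all gene lists were chosen with earlier results of these data known, and so was the background covariate. Deposited counts were tested with edgeR 4.0.16: TMM scaling, filterByExpr by group, and the robust quasi-likelihood F test on log2 background CPM plus group, with 16 libraries and Benjamini-Hochberg adjustment over 26257 genes. The background measure is the CPM of 1953 receptor genes of smell and pheromone sensing; its sets are cut at 500 and 1500 CPM. TPM were tested with limma 3.58.1 on log2(TPM + 0.5), a scale that understates changes of low genes. Log2 CPM has a prior count of 2. Intervals are 95% intervals of the fit; the limit for a count of 0 is 3 counts and covers counting error only. The scripts were tested on simulated data. p-values measure the spread between libraries, which the labels call biological replicates. Gene names, exons and transcripts are from GENCODE M21; 54409 identifiers were named.

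Named genes are the 7 members, the 2 pathway genes of smallest p per role (none passed), the 5 genes most like Erbb4 with a mean log2 CPM of at least 4, annotated overlaps and cell type markers; a few of them are left out of the text. The most abundant pathway genes of some roles and Spry1's level were chosen after their values were seen.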

Additional observations from a re-analysis of the deposited data

Results flagged for a closer look

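Nrg3 in eGFP replicate 2 lay below the other 8 eGFP libraries on log2(TPM + 0.5), at 3.70 against 4.08 to 4.46. Its gap to the nearest library was 0.504 of the group's range, above the limit of 0.493 for 9 samples. On CPM the same library had 76.7, also the lowest of its group, and its TPM were low in general, by 0.49 log2 units in the median over 8558 genes against the mean of the low-background eGFP libraries. In all 28 groups of values were looked at, and chance flags about 1 in 20.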

How the results depend on the processing

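The count of members past the threshold was 0, and so was that of pathway genes, under every alternative run: other covariates, scalings, filters, tests, tables and left-out libraries. Genes called in all numbered 9 with the background covariate. They numbered 1 without it, 24 with DESeq2 and the covariate and 14 with DESeq2 alone, 5 on recovered reads, and 4 on TPM at each pseudocount (0.5, 0.1 and 1). Leaving out each library in turn gave 4 to 11, with 4 without eGFP replicate 7, eGFP-GluA2 replicate 6 or eGFP-GluA2 replicate 7 and 5 without eGFP replicate 8. Alternatives added after seeing the data gave 5 on recovered reads and 3 on TPM without eGFP-GluA2 replicate 4, and 3 each on TPM and on counts without replicates 6 and 7. With DESeq2 no member or pathway gene was called either.

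Same-numbered libraries correlated at -0.03 to 0.91 over 7 pairs. Of these pairs 6 were over 0.1, and 2 libraries matched their own number best. The labels do not say whether a shared number means a shared day or litter, and this was not tested. Background tended to be lower at later numbers, though not in strict order. It was 3092 CPM in eGFP replicate 1 and 116 in eGFP replicate 9. For eGFP-GluA2 it was 4280 CPM in replicate 1 and 103 in replicate 7. With the replicate block 6 genes were called. The paired difference of the Erbb4 level was 0.0087 (p = 0.875, exact sign-flip permutation), against -0.068 unpaired. The Erbb4 level difference was 0.089 on log2(TPM + 0.5), log2(TPM + 0.1) and log2(TPM + 1), and -0.126 to -0.0224 leaving out 1 library.

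Nrg2 lay above 0 in 34 of 34 settings, at 0.24 to 0.74 (adjusted p = 0.569 to 1.00 over the edgeR, DESeq2 and limma fits). Leaving out 1 library gave -0.036 to 0.18 for Erbb2, -0.071 to 0.030 for Nrg1 and -0.048 to 0.0143 for Nrg3. The other signs turned as follows, and the cause was not tested. The log2 fold change of Erbb4 was 0.069 on TPM at each pseudocount, 0.099 there without eGFP-GluA2 replicate 4, and 0.0009 on counts without replicates 6 and 7. Erbb2 was -0.0065 without the covariate, -0.0104 with DESeq2 alone, -0.23 on recovered reads (-0.15 without eGFP-GluA2 replicate 4), -0.036 without eGFP-GluA2 replicate 5 and -0.060 on TPM without replicates 6 and 7. Erbb3 was 0.083 on recovered reads (0.127 without replicate 4) and 0.0148, 0.077 and 0.0053 on TPM at pseudocounts 0.5, 0.1 and 1 (0.050 without replicate 4). Nrg1 was 0.0029 and 0.0102 on TPM at 0.5 and 0.1 (0.034 without replicate 4), 0.0008 without eGFP replicate 4, 0.030 without eGFP replicate 7 and 0.0027 without eGFP-GluA2 replicate 2. Nrg3 was 0.073, 0.074 and 0.072 on TPM (0.111 without replicate 4), 0.0143 and 0.0121 without eGFP replicates 6 and 8, 0.0090 and 0.0064 without eGFP-GluA2 replicates 6 and 7, and 0.060 on counts without both. Nrg4 was -0.040 on TPM without replicates 6 and 7. The share of genes above 0 was 68.9% on TPM and 53.1% on counts. Of the 5 genes most like Erbb4, 1 was shared between CPM and TPM. Low counts limit Erbb2 and Erbb3, which had 0 to 15 counts in low-background libraries. Those libraries had the largest totals of the series, 13175003 to 15462544 counts.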
